A study of Mus musculus with 35 samples.

Results

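The comparison described here sets 3 Col5a1CKO skin wounds that had received WT fibroblasts against 7 WT wounds, all harvested at day 14 after wounding. These 10 samples were taken from the 35 of the series by the titles and column headers that name genotype, fibroblasts and day. The Col5a1CKO mice carried a tamoxifen-inducible Cre driven by a Col1a2 enhancer in fibroblasts (Col1a2CreERT) and 2 floxed copies of Col5a1. The WT mice were Cre-negative Col5a1 fl/fl littermates. Both genotypes were given tamoxifen, from 4 days before to 5 days after wounding by the study's results, while its methods give 5 days before. WT wounds thus also carried the floxed alleles and had the drug. The mice were 8 to 12 weeks old and of both sexes according to the methods. A wound of 1.5 by 1.5 cm was cut on the back, cultured skin fibroblasts of WT mice were injected around its bed on day 3, and RNA was made from a 6 mm punch of the middle of the wound at day 14. Each treated wound therefore held host cells of all types, the non-fibroblast cells with intact Col5a1, and any injected cells that remained. One conflict in the labels bears on the groups. The titles and headers give fibroblasts to the 3 wounds used here, whose treatment field says only that they were wounded, while that field gives fibroblasts to the day 19 Col5a1CKO samples. The titles and headers were followed. The study's legends give groups of 7 WT and 7 Col5a1CKO wounds at day 14 as having received vehicle, and its methods name PBS. The titles name no vehicle, and the Col5a1CKO wounds without fibroblasts are called untreated here.

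The 7 WT wounds fell into 2 sets of libraries. The difference in median log2(CPM + 1), where CPM is the count scaled to a common library size, between GC-rich and GC-poor genes was -2.34 to -1.72 in WT a to d, 0.56 to 0.62 in WT e to g and 0.34 to 0.90 in the treated wounds. WT e, f and g thus shared the library set of the treated wounds, and the comparison was made against all 7 WT wounds and against these 3. Library totals over the rows used were 15043531 to 35532355 counts in WT and 29126549 to 35700325 in treated wounds. Sex also differed between the groups. Xist, the RNA of the inactive X chromosome, was at 291 to 590 CPM in all 3 treated wounds, and the Y-linked Kdm5d stayed under 0.1 CPM there. Kdm5d was above 10 CPM in 5 of the 7 WT wounds, including all 3 of WT e to g, so in the smaller comparison treatment and sex cannot be told apart. WT c and d, of the other library set, were the 2 WT wounds that carried Xist RNA instead. In both comparisons the treated wounds differ from WT in genotype as well as in the injected fibroblasts. These 2 differences cannot be told apart, and treated is used here only as the name of the group. The study describes the group that received fibroblasts as including a male, which these libraries do not show, and the cause was not tested. Its methods call replicates separate biological samples, while the labels do not say which animal each came from.

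Skin repair passes from clotting and the entry of neutrophils and macrophages to granulation tissue, in which fibroblasts lay down collagen and new vessels grow, and then to the spread of keratinocytes over the bed. Keratinocytes at a wound edge switch on the stress keratins 6, 16 and 17, and once the surface is closed their upper layers make keratins 1 and 10, desmosomes, cornified envelope proteins and barrier lipids. Type V collagen is a minor fibrillar collagen that nucleates type I collagen fibrils, and mutations in COL5A1 cause classical Ehlers-Danlos syndrome.

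Against the 7 WT wounds, 578 genes were higher and 316 lower in treated wounds, which is 3.77% and 2.06% of the 15317 tested. The call required a change of at least 2-fold and an edgeR quasi-likelihood p that stayed under 0.05 after Benjamini-Hochberg adjustment. Against WT e to g alone, 2999 genes were higher and 1691 lower, which is 19.8% and 11.2% of 15132. Of the calls against 7 WT, 534 higher (92.4%) and 272 lower (86.1%) were called in the same direction against WT e to g, and none in the opposite one. These shared calls made up 17.8% and 16.1% of the calls against WT e to g. In 531 of the higher and 270 of the lower genes (3.47% and 1.76% of those tested) all 3 treated wounds also lay outside the range of all 7 WT wounds. That range spans both library sets and both sexes, but no WT wound had both the library set and the sex of the treated wounds. Of 5 sex chromosome genes, 4 were lower against 7 WT, and 3 of these were among the 270. Whether called or not, treated wounds lay above all 7 WT wounds in 12.1% of genes and below them in 7.68%, and above or below WT e to g in 30.4% and 29.4%. The 2 comparisons share the treated wounds and 3 WT wounds, so the second is not a repeat of the first. The count against 7 WT rested on each treated wound. Without treated wound a it was 253 higher and 118 lower, without b 268 and 124, and without c 207 and 73. Against WT e to g the counts moved less, to 2858 and 1690, 2978 and 1661, and 2456 and 1409. Without any one treated wound, no fibrillar collagen, proteoglycan, collagen-processing, elastic fiber, other cytokine, suprabasal keratin or hair keratin gene was called against 7 WT by edgeR. With the replicate letter as a block, treated a to c against WT a to c gave 1458 genes higher and 1718 lower, which is 9.98% and 11.8% of 14606, and these groups come from different library sets.

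**Figure D1:**
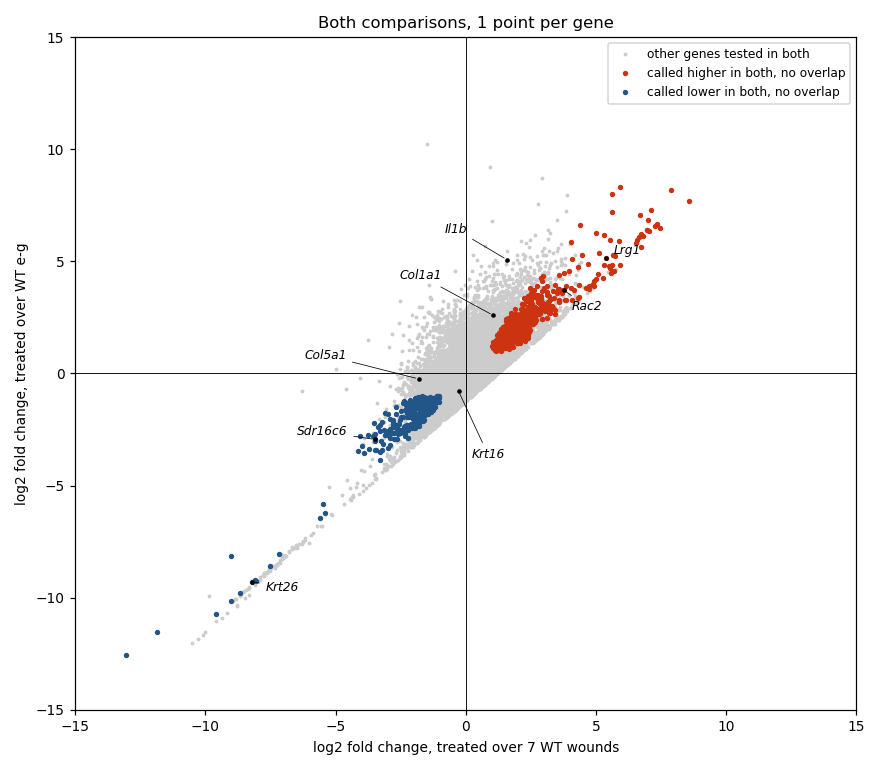
Log2 fold change of each gene tested in both comparisons, treated wounds over 7 WT wounds on the horizontal axis and over WT e to g on the vertical axis. Red and blue points are the 531 and 270 genes called in both with no overlap between treated and WT wounds. Col1a1 and Il1b lie above the diagonal, with larger changes against WT e to g, and Rac2, Lrg1 and Sdr16c6 change by a similar amount in both.

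A fixed rule took genes from those called in both comparisons with no overlap between the treated and the 7 WT wounds. The 5 higher ones with the smallest adjusted p against 7 WT were Rac2, Fgr, Tnfrsf1b, Gsr and 4632428N05Rik. Rac2 encodes the GTPase that drives the oxidase and movement of blood cells, and lies on chromosome 15 of build NCBI37/mm9, from 78389599 to 78403213. It was at 265, 202 and 223 CPM in treated wounds a, b and c, and at 12.7 to 26.7 CPM (median 13.5) in the 7 WT wounds. That is 13.7-fold higher (log2 fold change 3.78, SE 0.28, adjusted p = 0.000189 from edgeR), and 13.1-fold higher against WT e to g. That the lowest treated wound stood above the highest WT wound was required by the rule.

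Fgr, a Src family kinase of myeloid cells on chromosome 4 (132530010 to 132557825), was at 191, 179 and 172 CPM in treated wounds and 8.49 to 22.0 CPM (median 14.5) in WT wounds, with log2 fold changes of 3.70 and 3.69 in the larger and the smaller comparison. Tnfrsf1b, a TNF receptor found mostly on leukocytes and endothelium and also on chromosome 4 (144803366 to 144836773), was at 294, 607 and 275 CPM against 25.6 to 42.0 CPM (median 32.1), a log2 fold change of 3.58. Gsr, the enzyme that regenerates reduced glutathione (chromosome 8, 34762995 to 34808635), was at 281, 287 and 272 CPM against 23.7 to 45.0 CPM (median 28.9), a log2 fold change of 3.05. 4632428N05Rik is the older symbol of Vsir, the gene of the immune checkpoint protein VISTA (chromosome 10, 59809599 to 59835432). Its levels were 170, 195 and 175 CPM against 23.7 to 37.9 CPM (median 33.1), a log2 fold change of 2.49. The rule required that none of these 5 genes overlapped between the groups. In each of them the range of WT a to d overlapped that of WT e to g.

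By the same rule, the 5 lower genes with the smallest adjusted p were Sdr16c5, Gm11992, Mtap2, Sdr16c6 and Skint6. Sdr16c5 and Sdr16c6 encode related retinol dehydrogenases and are neighbours on chromosome 4 (3923083 to 3946810 and 3983078 to 4004669). Sdr16c6 was at 24.0, 24.1 and 22.8 CPM in treated wounds and 170 to 406 CPM (median 243) in WT wounds. Its log2 fold change was -3.47 (SE 0.39, adjusted p = 0.000726 from edgeR) against 7 WT and -2.94 against WT e to g. Sdr16c5 was at 38.0, 31.6 and 23.2 CPM against 164 to 230 CPM (median 183), a log2 fold change of -2.60. Skint6 belongs to a family of immunoglobulin-like genes expressed in epidermis and thymus (chromosome 4, 112477221 to 112959578) and was at 5.41, 9.67 and 6.79 CPM against 38.1 to 156 CPM (median 91.1). Mtap2, a microtubule-associated protein on chromosome 1 (66221847 to 66489157), was at 35.6, 45.7 and 35.9 CPM against 151 to 235 CPM (median 202). Gm11992 on chromosome 11 (8948597 to 8969359) was at 19.4, 22.7 and 18.9 CPM against 90.7 to 145 CPM (median 118). In each of the 5, the highest treated wound was below the lowest WT wound, as the rule required.

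Epidermal genes were examined by layer. None of the 4 stress keratins was called in either comparison by edgeR. Krt6a was at 3296, 4080 and 2649 CPM in treated wounds and at 2576 to 10499.9 CPM (median 3411) in WT wounds. Krt6b was at 3904, 4694 and 2722 CPM against 2969 to 11971 CPM (median 7418), Krt16 at 4342, 4979 and 2370 CPM against 2549 to 11599.8 CPM (median 4126), and Krt17 at 1966, 3609 and 1749.9 CPM against 775 to 4489 CPM (median 1399). The groups overlapped for all 4 genes over the 7 WT wounds, but every treated wound was below WT a to d in Krt6b and above them in Krt17. Their log2 fold changes were -0.41 (SE 0.48) for Krt6a, -0.92 (SE 0.48) for Krt6b, -0.28 (SE 0.49) for Krt16 and 0.51 (SE 0.52) for Krt17, with adjusted p of 0.680, 0.288, 0.808 and 0.632 from edgeR. With these standard errors a 2-fold difference in either direction could have gone uncalled, and for Krt16 the sign turned to 0.096 without WT g, the WT wound with the highest level. Krt17 had a log2 fold change of -0.12 against WT e to g. With the replicate block against WT a to c, Krt6b was lower (log2 fold change -1.21, adjusted p = 0.0162) and Krt17 higher (1.05, adjusted p = 0.0134, both from edgeR).

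Among 10 suprabasal keratins 1 was lower against 7 WT, and 7 of 9 were lower against WT e to g. Over all genes the lower shares were 2.06% and 11.2%. The median log2 fold change of the list was -1.99 and -2.78, beside 0.03 and 0.00 over all genes tested. The 1 lower keratin was Krt78, at 90.5, 73.8 and 21.2 CPM in treated wounds and 182 to 532 CPM (median 248) in WT wounds. The major suprabasal pair, picked out after its values were seen, was below every WT wound but spread widely among them. Krt10 was at 4617, 3075 and 1684 CPM in treated wounds, at 5596 to 11612 CPM in WT a to d and at 25316 to 66029 CPM in WT e to g. Krt1 was at 5629, 5522 and 1907 CPM against 7724 to 11701 CPM and 25526 to 54219 CPM. Against 7 WT neither passed (adjusted p = 0.106 for both, edgeR), and against WT e to g the log2 fold changes were -4.06 for Krt10 and -3.35 for Krt1 (adjusted p = 0.00163 and 0.00283). In bulk tissue, fewer cells of a layer and less RNA per cell cannot be told apart.

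Of 42 cornified envelope genes tested, 7 were lower and 1 higher against 7 WT, and 24 were lower and 1 higher against WT e to g. Over all genes, 2.06% were lower and 3.77% higher against 7 WT, and 11.2% lower and 19.8% higher against WT e to g. The 2 members with the smallest adjusted p were Ivl, which encodes involucrin, a scaffold of the envelope, and Krtdap, a keratinocyte differentiation protein. Ivl was at 77.2, 80.2 and 46.3 CPM in treated wounds and 276 to 698 CPM (median 465) in WT wounds, a log2 fold change of -2.77 (SE 0.39, adjusted p = 0.00261 from edgeR). Krtdap was at 1409, 1249 and 847 CPM against 3667 to 6335 CPM (median 5086), a log2 fold change of -2.11. The higher member, picked out after its values were seen, was Sprr2e in the larger comparison (90.8, 220 and 63.1 CPM against 9.47 to 52.6 CPM) and Sprr2b in the smaller, both small proline-rich proteins that inflamed and wounded epidermis makes. The list's median was -1.44 and -1.80. With the block against WT a to c, 20 were lower and 10 higher, beside 11.8% and 9.98% of all genes.

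Desmosomes, the junctions that rivet keratinocytes together, were represented by 17 genes, of which 4 were lower against 7 WT and 14 against WT e to g. Over all genes 2.06% and 11.2% were lower in these comparisons. Dsg1a, a cadherin of the upper layers, was at 264, 335 and 195 CPM in treated wounds and 1318 to 2158 CPM (median 1408) in WT wounds, and its log2 fold change was -2.61 and -2.47. Dsc1, its partner desmocollin, was at 345, 462 and 409 CPM against 1772 to 3159 CPM (median 2186), a log2 fold change of -2.57. Of 25 epidermal lipid barrier genes, 11 were lower against 7 WT, the largest count of lower members among the lists in that comparison, and 20 against WT e to g. All 11 also had no overlap, and 11 were lower and 5 higher with the block, beside 11.8% and 9.98% of all genes. Lipm, a lipase of the granular layer, was at 61.5, 59.1 and 44.1 CPM against 202 to 515 CPM (median 323). Asah2, a ceramidase, was at 31.0, 33.9 and 36.2 CPM against 97.8 to 221 CPM (median 160). The other 9 were Abca12, Elovl4, Elovl7, Smpdl3a, Ptgr1, Lipn, Lipk, Sdr9c7 and Dbi.

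**Figure D2:**
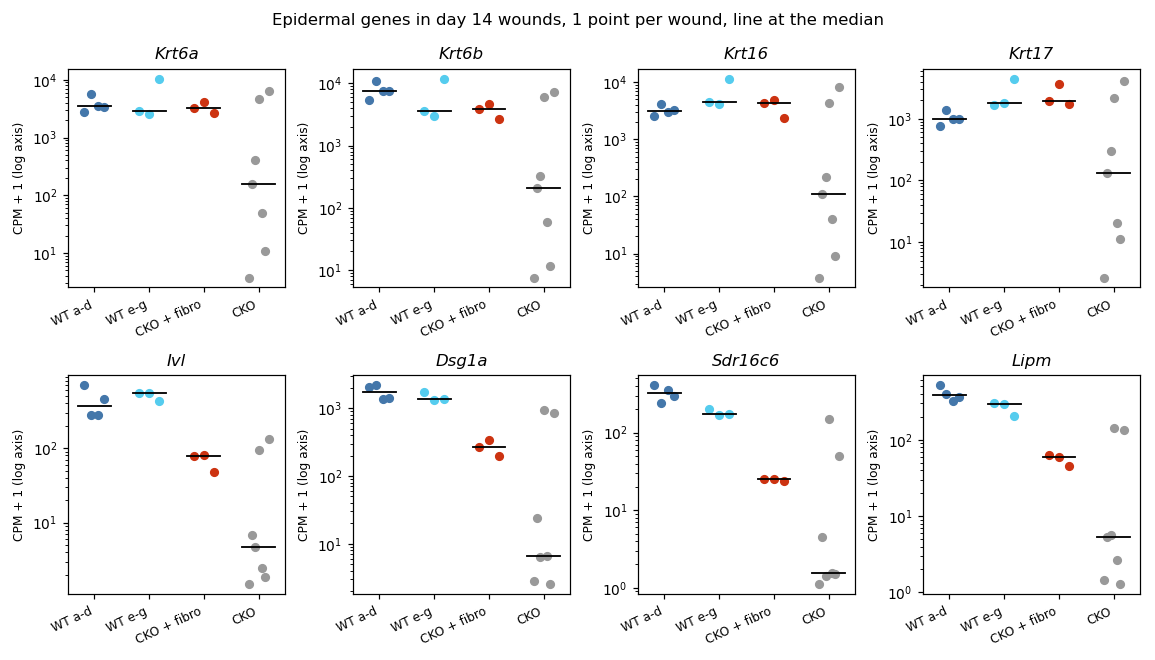
CPM + 1 on log axes of 8 epidermal genes in each day 14 wound, with the median of each group as a line. In the 4 stress keratins the treated wounds (CKO + fibro) overlap the 7 WT wounds, though not WT a to d in Krt6b and Krt17, and untreated Col5a1CKO wounds (CKO) spread from near 0 into the WT range. In Ivl, Dsg1a, Sdr16c6 and Lipm both Col5a1CKO groups lie below all 7 WT wounds.

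Proteases and their inhibitors of the shedding surface included 4 lower members of 17, Klk7, Spink5, Serpinb3a and Serpinb5, and 10 of 17 against WT e to g. Serpinb5 (maspin) was at 219, 350 and 188 CPM in treated wounds, 2174 to 2501 CPM in WT a to d and 1041 to 1222 CPM in WT e to g. Spink5, the inhibitor that is absent in Netherton syndrome, was at 1077, 996 and 543 CPM against 1938 to 4755 CPM (median 3689). In the interleukin-1 family 4 of 15 genes were lower and 1 higher against 7 WT, and 4 lower and 6 higher against WT e to g. Beside both lists, lower genes were 2.06% and 11.2% of all genes in the 2 comparisons, and higher genes 3.77% and 19.8%. Il1f8, which encodes interleukin-36 beta, was at 22.3, 23.7 and 16.8 CPM against 90.8 to 373 CPM (median 182), and Il18 at 44.4, 37.2 and 27.1 CPM against 97.7 to 361 CPM (median 189). Il1f5 and Il1f6 were also lower in both comparisons, and Il1f9, at 114 to 199 CPM against 219.6 to 505 CPM, was called in neither.

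RefSeq promoters (build GRCm38.p6, 250 bases before to 50 after each start) were searched for 15 of the 20 named genes that were lower. Among the 51 that were higher, 38 were searched. The set searched did not cover every chromosome. The lower genes Dsg1a, Dsc1 and Spink5 and the higher gene Csf1r were among those left out. The AP-1 motif TGANTCA, read on both strands, was searched because AP-1 factors act in keratinocyte differentiation. It stood in the promoters of 5 of those 15 lower genes and 6 of those 38 higher genes. The share was 7.81% over the 32851 promoters of this length in the set searched. Counted by gene, 2425 of 27025 in that set had a match. Promoters of 3 of the lower genes of the upper epidermis, picked because they held a match, are shown with the motif in capitals. The lower genes Krt78, Lipm, Sdr16c6 and Skint6 had no match. A match describes these letters and does not show a bound factor.
Ivl promoter, minus strand, chr3:92573686-92573985: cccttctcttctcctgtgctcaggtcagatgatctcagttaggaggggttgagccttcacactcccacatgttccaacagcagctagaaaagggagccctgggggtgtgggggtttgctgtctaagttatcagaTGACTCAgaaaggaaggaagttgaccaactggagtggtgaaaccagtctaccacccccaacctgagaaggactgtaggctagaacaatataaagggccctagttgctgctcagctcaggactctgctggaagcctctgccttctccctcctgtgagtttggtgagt
Krtdap promoter, plus strand, chr7:30787655-30787954: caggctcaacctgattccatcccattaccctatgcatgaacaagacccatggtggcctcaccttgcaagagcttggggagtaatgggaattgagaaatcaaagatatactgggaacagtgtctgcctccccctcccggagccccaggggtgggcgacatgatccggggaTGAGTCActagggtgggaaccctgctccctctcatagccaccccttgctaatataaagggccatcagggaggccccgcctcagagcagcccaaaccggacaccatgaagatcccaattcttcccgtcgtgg
Serpinb5 promoter, plus strand, chr1:106860925-106861224: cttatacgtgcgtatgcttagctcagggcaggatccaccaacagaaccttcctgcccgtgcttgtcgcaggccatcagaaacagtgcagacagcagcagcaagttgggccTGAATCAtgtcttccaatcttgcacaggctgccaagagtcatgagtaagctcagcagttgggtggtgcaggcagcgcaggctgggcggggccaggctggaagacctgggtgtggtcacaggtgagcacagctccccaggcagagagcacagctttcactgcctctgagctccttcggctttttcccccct

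Of 12 basal keratinocyte genes none was called against 7 WT and 2 were lower against WT e to g, Krt5 and Krt15. Over all genes 2.06% were lower against 7 WT and 11.2% against WT e to g, and the basal counts are near those shares. Hair keratins set WT e to g apart from WT a to d and also from the treated wounds, which share the library set of WT e to g. Their summed level was 18.5 to 46.8 CPM in treated wounds, 31.5 to 183 CPM in WT a to d and 541 to 9485 CPM in WT e to g. In these genes 19 of 21 were lower against WT e to g and 1, Krt26, against 7 WT. Krt26 was at 0.30, 0.06 and 0.19 CPM in treated wounds and 2.21 to 262 CPM in WT wounds. Melanocyte genes (7 of 8 lower) and hair follicle factors (12 of 16 lower) were called against WT e to g and in no case against 7 WT.

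Leukocyte genes moved the other way. Of 13 leukocyte adhesion genes, 10 were higher against 7 WT and all 13 against WT e to g, beside 3.77% and 19.8% of all genes. The list had medians of 2.37 and 2.98. Its summed level was 1612 to 1811 CPM in treated wounds, 354 to 499 CPM in WT a to d and 177 to 259 CPM in WT e to g. Ptprc, which encodes the pan-leukocyte marker CD45, was at 217, 355 and 290 CPM in treated wounds and 27.6 to 120 CPM (median 82.8) in WT wounds, a log2 fold change of 1.91 (SE 0.43, adjusted p = 0.0227 from edgeR) and of 2.90 against WT e to g. Itgam, the CD11b chain of myeloid cells, was at 189, 361 and 280 CPM against 24.5 to 87.0 CPM (median 40.2), with log2 fold changes of 2.37 and 3.22. In 2-sided exact permutation tests of 13 genes on log2(CPM + 1), both gave p = 0.0167, the smallest that 3 against 7 wounds can give, and 0.0542 after Benjamini-Hochberg adjustment. With 3 against 3 the smallest p is 0.10, which both reached.

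Itgal, the CD11a chain, was at 117, 127 and 123 CPM in treated wounds and 9.72 to 18.6 CPM (median 16.3) in WT wounds, a log2 fold change of 3.02. Itgb2, the beta chain shared by both, was at 267, 326 and 314 CPM against 22.6 to 83.4 CPM (median 45.8), a log2 fold change of 2.54. Selplg, the ligand that leukocytes use to roll on selectins, was at 291, 258 and 228 CPM against 13.1 to 35.0 CPM (median 20.9), a log2 fold change of 3.60. On the vessel side, Selp, Sele and Icam1 were among the 10 higher genes.

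Neutrophil genes gave 9 higher and 2 lower of 22 against 7 WT, beside 3.77% and 2.06% of all genes. Against WT e to g 15 were higher and 2 lower, beside 19.8% and 11.2% of all genes. The summed level of the neutrophil genes did not follow these counts. It was 11360 to 13762 CPM in treated wounds, below the 14890 to 26930.5 CPM of WT a to d and above the 5145 to 8209.5 CPM of WT e to g. Lrg1, a glycoprotein of neutrophil granules and inflamed vessels, was at 351, 131 and 214 CPM in treated wounds and 1.36 to 12.6 CPM (median 3.74) in WT wounds, a log2 fold change of 5.37. Cxcr2, the receptor for neutrophil-attracting chemokines, was at 248, 281 and 195 CPM against 16.5 to 54.0 CPM (median 22.0), a log2 fold change of 3.12. The 2 lower members, named after their values were seen, were the stefins Stfa3 and BC100530, cystatin-type protease inhibitors. Stfa3 was at 1057, 809 and 286 CPM against 1806 to 10285 CPM. The abundant pair S100a8 and S100a9, also chosen after their values were seen, was not called against 7 WT (log2 fold change 1.01 and 1.47, adjusted p = 0.344 and 0.169) and was higher against WT e to g (2.03 and 2.39). Both are also made by stressed keratinocytes.

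Monocyte and macrophage genes were higher in 5 of 25 against 7 WT and 20 of 25 against WT e to g, and their medians were 1.10 and 2.00. Csf1r, the receptor on which macrophages depend, was at 348, 422 and 376 CPM in treated wounds and 67.9 to 119 CPM (median 76.2) in WT wounds, a log2 fold change of 2.11. Cd68 was at 191, 223 and 216 CPM against 36.3 to 92.9 CPM (median 52.1), a log2 fold change of 1.90. Fcgr1, Nos2 and C1qa were the other 3. T and NK cell genes were higher in 2 of 22, Cd4 and Ctla4, beside 3.77% of all genes. Cd4 was at 29.0, 17.7 and 31.2 CPM against 0.49 to 5.57 CPM (median 4.25), and Ctla4, an inhibitory receptor of T cells, at 6.10, 8.73 and 11.9 CPM against 0 to 1.24 CPM. Against WT e to g 7 of the 22 were higher and 1 lower, beside 19.8% and 11.2% of all genes. Without treated wound a or c none of the 22 was called against 7 WT. No B cell, mast cell or MHC class II gene was called against 7 WT by edgeR, and against WT e to g 1 of 3 B cell genes, 7 of 8 mast cell genes and 2 of 12 MHC class II genes were higher, beside 19.8% of all genes, a share that the MHC class II count does not reach.

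The interleukin-1 beta gene depended on which WT wounds were used. Il1b was at 1375, 2389 and 1503 CPM in treated wounds, at 11.8 to 2157 CPM in WT a to d and at 8.39, 7.38 and 139.6 CPM in WT e, f and g. It was not called against 7 WT (log2 fold change 1.58, SE 1.48, adjusted p = 0.597 from edgeR) and was higher against WT e to g (log2 fold change 5.08, SE 1.44, adjusted p = 0.0350). WT c and d, the 2 WT wounds with Xist RNA, reached the treated range, so the groups overlapped. The part of sex in this was not tested. Il1r1, the signalling receptor of interleukin-1, picked out after its values were seen, was higher in both at 83.8, 86.7 and 118 CPM against 19.4 to 47.0 CPM (median 31.2). Of 17 other cytokines, Il6, Il17a and Il17f were higher against 7 WT, beside 3.77% of all genes, and 11 were higher and 1 lower against WT e to g. Without treated wound a, b or c none of them was called against 7 WT. Il17f was at 10.4, 15.9 and 12.6 CPM in treated wounds and 0 to 1.28 CPM in WT wounds, and Il17a at 18.3, 20.2 and 7.50 CPM against 0 to 0.93 CPM. These interleukins are made by type 17 lymphocytes and act on keratinocytes. No CC chemokine or receptor of 26 was called against 7 WT, while 17 were higher and 3 lower against WT e to g. In that comparison 19.8% of all genes were higher and 11.2% lower.

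TNF receptors and NF-kB feedback genes held in both comparisons, with 10 of 13 higher against 7 WT and 11 of 13 against WT e to g, and medians of 2.17 and 2.11. Beside Tnfrsf1b they were Tnfaip2, Tnfaip3, Nfkbia, Nfkbie, Nfkbiz, Nfkb2, Relb, Traf1 and Socs3, which include the inhibitors Tnfaip3 and Nfkbia and the NF-kB subunits Nfkb2 and Relb. Tnfaip2 was at 298, 303 and 274 CPM in treated wounds and 32.7 to 62.4 CPM (median 52.4) in WT wounds, a log2 fold change of 2.55 against 7 WT and 2.54 against WT e to g. Of 14 immediate early genes 4 were higher against 7 WT and 7 higher and 2 lower against WT e to g. Over all genes these shares were 3.77%, 19.8% and 11.2%. The higher ones included Dusp1 (580, 392 and 308 CPM against 48.7 to 136 CPM) and Fos (276, 198 and 182 CPM against 26.9 to 97.3 CPM). Of 25 interferon-stimulated genes 5 were higher against 7 WT and 16 against WT e to g. Oas3, a sensor of double-stranded RNA, was at 52.1, 77.7 and 47.7 CPM against 2.62 to 13.0 CPM (median 6.52). Receptors of the Toll-like and C-type lectin families were higher in 1 of 18 (Tlr2) and 14 of 18, and complement genes in 3 of 17 and 15 of 16, beside 3.77% and 19.8% of all genes.

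**Figure D3:**
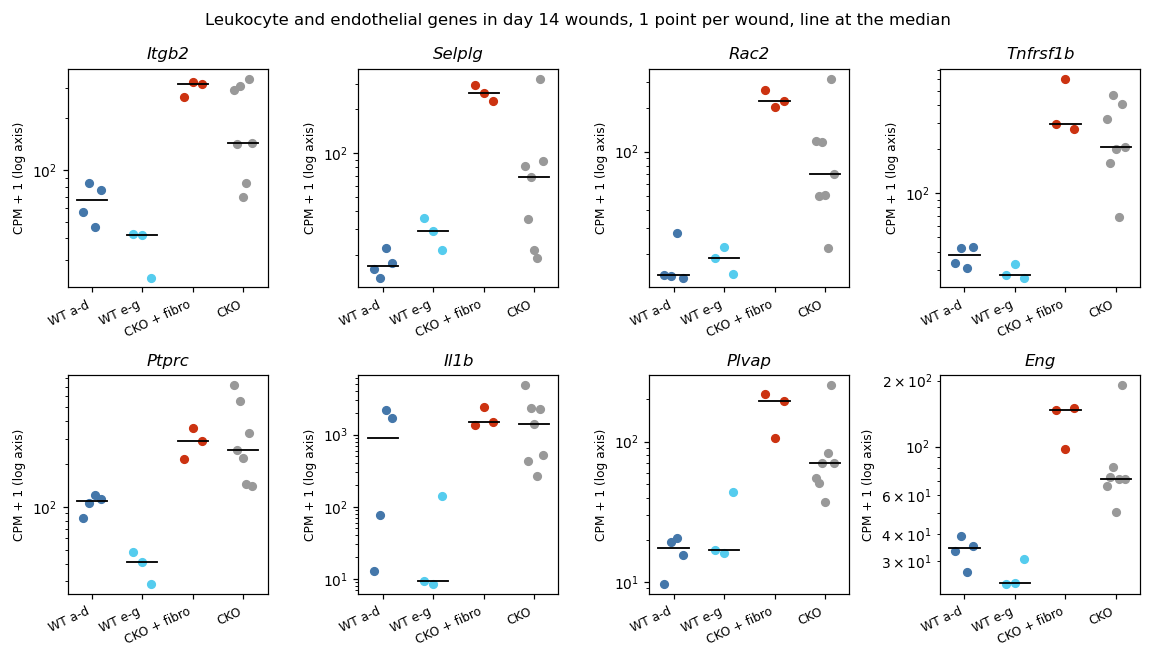
CPM + 1 on log axes of 6 leukocyte or cytokine genes and 2 endothelial genes in each day 14 wound, with the median of each group as a line. Treated wounds (CKO + fibro) lie above all 7 WT wounds in each gene except Il1b, where 2 of WT a to d reach the treated range, and within the range of untreated Col5a1CKO wounds (CKO) in each gene except Tnfrsf1b, whose highest treated wound is above it.

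Vessel and blood genes were higher too. Of 20 endothelial genes, 9 were higher against 7 WT and 19 against WT e to g, with medians of 1.77 and 2.24. The shares of all genes that were higher were 3.77% and 19.8%. Plvap, which forms the diaphragms of permeable vessels, was at 219, 105 and 194 CPM in treated wounds and 8.61 to 42.8 CPM (median 16.0) in WT wounds, a log2 fold change of 3.17. Eng, a TGF-beta co-receptor of proliferating endothelium, was at 146, 96.8 and 149 CPM against 22.5 to 38.1 CPM (median 29.6), a log2 fold change of 2.16. The receptor Kdr and the junction cadherin Cdh5 were among the other 7. All 4 hemoglobin genes, RNA of red blood cells, were higher in both comparisons, and their summed level was 399 to 472 CPM in treated wounds, 17.8 to 79.0 CPM in WT a to d and 32.3 to 161 CPM in WT e to g. Hbb-b1 and Hbb-b2 are near-identical copies and had the same counts, so they are 1 measurement. The part of blood in the punch in the leukocyte counts was not tested.

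Col5a1, the gene deleted in host fibroblasts, was at 172, 306 and 392 CPM in treated wounds, 839 to 2300 CPM in WT a to d and 343, 349 and 327 CPM in WT e, f and g. Within WT a to d it was at 839 and 954 CPM in a and b, and at 2300 and 2014 CPM in c and d. The gene lies on chromosome 2, from 27741945 to 27895034, and the counts cover its exons. The log2 fold change was -1.81 (SE 0.73, adjusted p = 0.171 from edgeR) against 7 WT and -0.24 (SE 0.28, adjusted p = 0.507) against WT e to g, and a 2-sided exact permutation test against 7 WT gave p = 0.117 (0.244 adjusted over 13 genes). Treated wounds thus overlapped WT e to g in the level of Col5a1. Relative to its fibril partners, by ratios added once the data had been seen, they did not overlap with any WT wound. The ratio of Col5a1 to Col1a1 CPM was 0.0124, 0.0217 and 0.0215 in treated wounds, 0.127 to 0.163 in all 7 WT wounds. Untreated Col5a1CKO wounds, of which there were 7, had ratios of 0.0145 to 0.0465. The ratio of Col5a1 to Col5a2, its partner chain in type V collagen, was 0.144 to 0.201 in treated wounds, 0.358 to 0.602 in WT a to d, 1.29 to 1.39 in WT e to g and 0.0555 to 0.193 in untreated Col5a1CKO wounds. Both differences from 7 WT had the smallest p that 3 against 7 wounds can give (p = 0.0167, 2-sided exact permutation test, unadjusted). In both ratios the treated wounds overlapped the untreated ones of the same genotype. The medians were close for Col5a1 to Col1a1 (0.0215 treated, 0.0223 untreated). For Col5a1 to Col5a2 the treated wounds lay at the top of the untreated range, with medians of 0.187 and 0.0779. The ratios to Col1a1 and Col5a2 depend on those genes as well as on Col5a1.

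Other matrix genes were called mainly against WT e to g. Of 10 fibrillar collagens 1 was higher against 7 WT and 9 against WT e to g, with medians of 0.79 and 2.46. The shares of all genes that were higher were 3.77% and 19.8%. Col1a1, the main chain of type I collagen, was at 13840, 14100.1 and 18270.0 CPM in treated wounds, 5130.2 to 17276 CPM in WT a to d and 2319 to 2702 CPM in WT e to g. Within WT a to d it was at 5130.2 and 7167 CPM in a and b, and at 17276 and 15063 CPM in c and d. Its log2 fold change was 1.05 (adjusted p = 0.373) and 2.60 (adjusted p = 0.000419, both from edgeR). Col3a1 changed sign between the comparisons. It was at 13437, 13430 and 17462 CPM in treated wounds, between the 24506 to 35265 CPM of WT a to d and the 3269.9 to 4377 CPM of WT e to g, with log2 fold changes of -0.37 and 1.94. For Col3a1 the WT sets lay further from each other than the treated wounds lay from either, and the direction depended on which WT wounds were used.

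Small leucine-rich and other proteoglycans showed the same split, with a median log2 fold change of -1.01 over 13 genes against 7 WT and 2.28 over 14 genes against WT e to g. One of 13, Hspg2, was higher against 7 WT, and 11 of 14 against WT e to g. Decorin and lumican were picked out after their values were seen. Dcn was at 1138, 805 and 1318 CPM in treated wounds, 3034 to 4431 CPM in WT a to d and 171 to 217 CPM in WT e to g, and Lum at 485, 356 and 624 CPM against 2764 to 4093 CPM and 65.3 to 101 CPM. Matricellular proteins (0 of 17 against 7 WT and 10 of 17 against WT e to g), crosslinking and processing enzymes (1 and 17 of 25), elastic fiber genes (2 and 10 of 16) and contractile genes (0 and 9 of 12) were likewise higher mainly against WT e to g, in a comparison that called 19.8% of all genes higher beside 3.77% against 7 WT. With the block against WT a to c, 9 of 13 proteoglycan genes were lower and none was higher by edgeR, beside 11.8% and 9.98% of all genes. No matricellular or contractile gene was lower in either comparison by edgeR.

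The matrix genes that were higher in both comparisons with no overlap included some of basement membranes and minor collagens. Col15a1, a collagen of vessel and muscle basement membranes, was at 214, 165 and 320 CPM in treated wounds and 20.8 to 77.2 CPM (median 48.3) in WT wounds, a log2 fold change of 2.37 against 7 WT and 2.83 against WT e to g. Col4a2, a chain of the network collagen of basement membranes, was at 369, 329 and 522 CPM against 44.7 to 182 CPM (median 111), and Hspg2, which encodes perlecan, at 415, 489 and 542 CPM against 94.6 to 266 CPM (median 188). Col5a3, a further chain of type V collagen, was at 678, 587 and 723 CPM against 96.8 to 348 CPM (median 256), a log2 fold change of 1.40 (SE 0.33, adjusted p = 0.0300 from edgeR). The others were the collagen hydroxylase Plod3, Efemp2 and Ltbp2 of elastic fibers, and the proteases Mmp8 and Mmp10. Mmp8, a collagenase of neutrophils, was at 91.8, 88.1 and 71.8 CPM against 0.28 to 15.3 CPM (median 1.66). Mmp10 was at 282, 40.1 and 96.9 CPM against 0.77 to 24.2 CPM (median 10.3). With library set and Xist level as covariates Ltbp2 had a log2 fold change of 0.045 in place of 4.08, and Ltbp2, Plod3 and Mmp10 were not called. With the block Col5a3, Hspg2 and Mmp10 were not called.

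**Figure D4:**
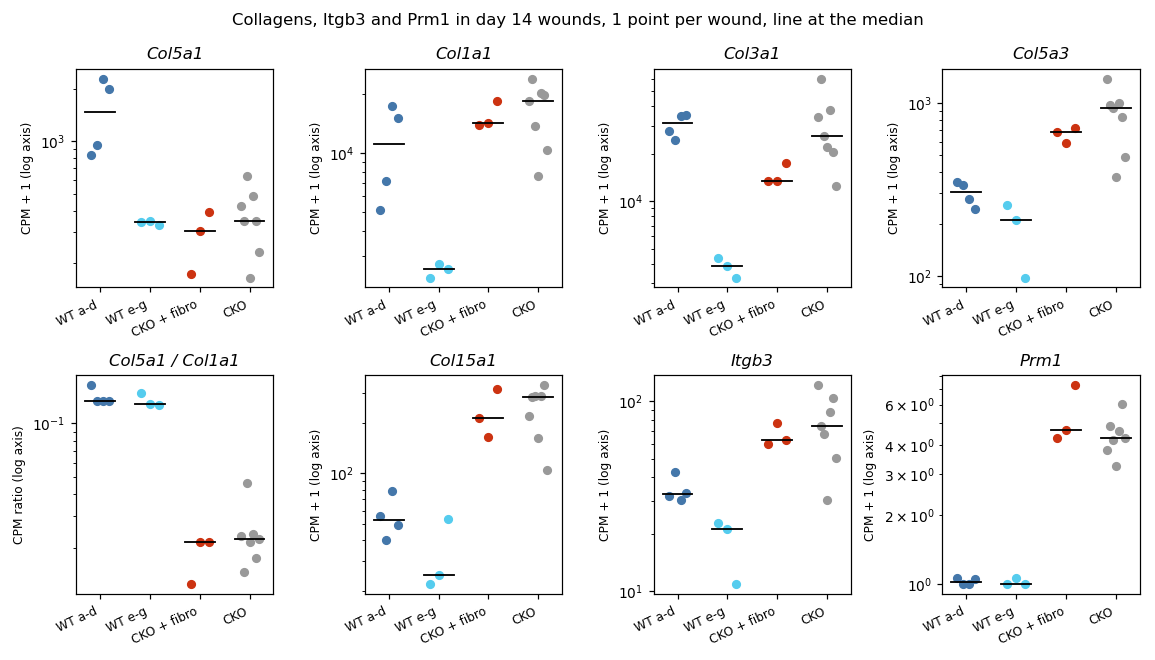
Levels of 7 genes (CPM + 1) and the ratio of Col5a1 to Col1a1 CPM in each day 14 wound on log axes, with the median of each group as a line. Col1a1 and Col3a1 separate WT a to d from WT e to g, the Col5a1 to Col1a1 ratio separates both WT sets (0.127 to 0.163) from both Col5a1CKO groups, and Prm1 is near 0 in WT wounds alone.

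Of 16 fibroblast markers, Twist2 and En1 were higher in both comparisons, and 13 were higher and 2 lower against WT e to g. Among all genes 3.77% were higher against 7 WT, and 19.8% were higher and 11.2% lower against WT e to g. Twist2, a factor of dermal mesenchyme, was at 122, 66.0 and 106 CPM in treated wounds and 9.38 to 29.8 CPM (median 13.7) in WT wounds. En1, which marks a lineage of dorsal fibroblasts and also other skin cells, was at 21.1, 25.6 and 29.9 CPM against 1.96 to 5.57 CPM (median 3.71). Among signalling genes Grem1, a secreted BMP inhibitor, had the highest fold change of the TGF-beta family against 7 WT (log2 fold change 3.96, from 1.75 to 16.9 CPM in WT wounds to 114, 125 and 170 CPM). Tgfb1 was at 246, 220 and 206 CPM against 11.5 to 59.9 CPM (median 43.2). The mesenchymal receptor Fgfr1 was higher (302, 191 and 255 CPM against 40.0 to 110 CPM) and Fgfr2, whose epithelial form binds keratinocyte growth factor, was lower (30.0, 37.9 and 17.2 CPM against 40.9 to 137 CPM).

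Integrin genes were higher in 6 of 25 against 7 WT and 13 of 25 against WT e to g, beside 3.77% and 19.8% of all genes. The 6 were Itgal, Itgam, Itgax, Itgb2 and Itgb7, which leukocytes use, and Itga5, a chain of the fibronectin receptor. Itgav and Itgb3 encode the chains of the receptor that cilengitide blocks elsewhere in the study. Itgb3 was at 59.0, 75.9 and 61.6 CPM in treated wounds and 9.87 to 41.6 CPM (median 29.1) in WT wounds, with no overlap. It missed the call against 7 WT (log2 fold change 1.31, SE 0.36, adjusted p = 0.0554 from edgeR) and was higher against WT e to g (1.91, adjusted p = 0.00262). Itgav was at 78.3, 172 and 115 CPM against 72.3 to 213 CPM (median 178), with log2 fold changes of -0.28 and 0.59, neither called.

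Prm1, a sperm chromatin protein, was at 3.31, 3.67 and 6.26 CPM in treated wounds, at 0 to 0.06 CPM in WT wounds and at 2.25 to 5.03 CPM in untreated Col5a1CKO wounds. It was higher in both comparisons (adjusted p = 0.00434 and 0.000641 from edgeR), though not with the block (adjusted p = 0.0748), and separated all 10 Col5a1CKO wounds from all 7 WT wounds, as their labels part them.

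A pair of long lists gave no call in either comparison by edgeR, 31 cell cycle genes (median -0.31 and -0.04) and 63 subunits of the mitochondrial respiratory chain (median -0.27 and -0.21). With the block against WT a to c, of the other library set, 13 of the 31 and 21 of the 63 were lower and 2 respiratory chain genes higher. In that fit 11.8% of all genes were lower and 9.98% higher. Markers of other tissues a punch can hold varied with single wounds. The summed level of skeletal muscle genes was 527 to 45754 CPM in treated wounds and 36.1 to 16580 CPM in WT wounds, and none of 28 was called against 7 WT by edgeR, so the contractile genes, some of which muscle also expresses, are given with that range. No adipocyte gene of 14 and no Schwann cell gene of 10 was called against 7 WT.

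With library set as a covariate, 10% of genes were higher and 6.67% lower against 7 WT. With the Xist level as well, 1108 genes were higher (7.23%) and 776 lower (5.07%) against 7 WT, and the lists differed in how many members were then called. Leukocyte adhesion genes were higher in 8 of 13, macrophage genes in 16 of 25, complement genes in 13 of 17 and endothelial genes in 8 of 20, while epidermal lipid barrier genes were lower in 14 of 25 and desmosome genes in 10 of 17. Neutrophil genes had 4 higher and 0 lower of 22, TNF and NF-kB genes 4 higher of 13, and no hemoglobin gene or other cytokine was higher. Il17f had a log2 fold change of 0.33 and Il17a of 0.63 in that fit, neither called. Col5a1 was lower in it (log2 fold change -1.44, adjusted p = 0.0281 from edgeR). Only 2 WT wounds carried Xist RNA, both in the set with no treated wound. With the replicate block against WT a to c, higher members numbered 9 of 13 for leukocyte adhesion genes, 11 of 13 for TNF and NF-kB genes, 9 of 21 for neutrophil genes, 8 of 20 for endothelial genes and 4 of 4 for hemoglobin genes. In that fit 9.98% of all genes were higher and 11.8% lower. Macrophage genes were higher in 3 of 25, near that share. Other lists moved further, with 5 of 12 contractile genes, 9 of 28 skeletal muscle genes and 4 of 12 basal keratinocyte genes higher. Higher in that fit were also 5 of 17 kallikreins and inhibitors and 4 of 15 desmosome genes, and 4 desmosome genes were lower. Col5a1 was lower in it (log2 fold change -2.29, adjusted p = 0.00253 from edgeR), as was Col3a1, and Tlr2 and Cd4 were not called.

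Untreated Col5a1CKO wounds of the same day stand beside the treated ones against the same 7 WT wounds, so the 2 sets of values share their controls. By GC content untreated wounds a to e (-1.50 to -1.20) fell apart from f and g (0.73 and 0.61), which shared the library set of the treated wounds. For leukocyte adhesion genes 9 of 13 were higher in untreated wounds (10 of 13 in treated), for TNF and NF-kB genes 9 of 13 (10 of 13), for endothelial genes 8 of 20 (9 of 20) and for hemoglobin genes 4 of 4 (4 of 4), beside 5.57% of all genes tested in the untreated and 3.77% in the treated comparison. For epidermal lists the untreated medians were lower while fewer members were called lower. Cornified envelope genes had a median of -2.83 with 1 of 41 lower (treated -1.44 with 7 of 42), desmosome genes -1.91 with 0 of 15 (-1.09 with 4 of 17) and lipid barrier genes -2.04 with 6 of 25 (-1.33 with 11 of 25), beside 2.71% and 2.06% of all genes. The stress keratins had medians of -1.41 and -0.34 and no call. Krt16 was at 2.82 to 8199 CPM in the 7 untreated wounds and 2370 to 4979 CPM in the 3 treated ones, and Sdr16c6 at 0.11 to 149 CPM and 22.8 to 24.1 CPM. In untreated f and g, of the treated library set, Krt16 was at 7.99 and 8199 CPM. The difference between treated and untreated wounds was not tested here.

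**Figure D5:**
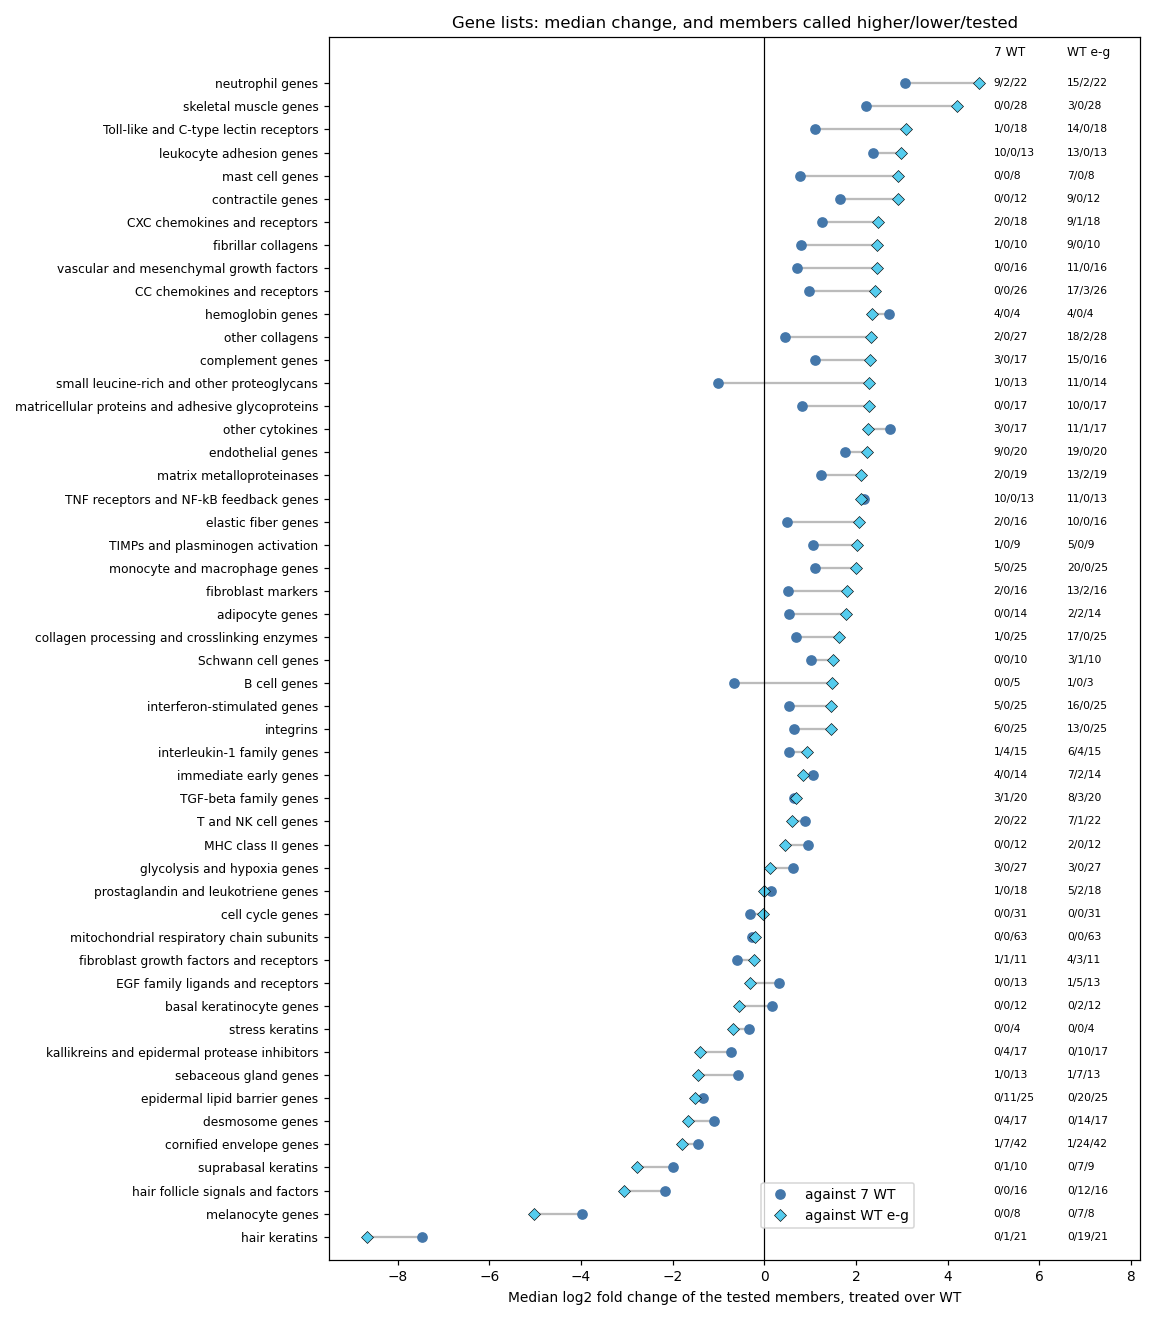
Median log2 fold change of the tested members of each gene list, treated wounds over 7 WT wounds (circles) and over WT e to g (diamonds), with the members called higher, lower and tested printed at the right for each, and sex chromosome genes left out. Neutrophil genes (3.07 and 4.69) are at the top and hair keratins (-7.48 and -8.68) at the bottom, and proteoglycans and B cell genes lie on opposite sides of 0 in the 2 comparisons, as do EGF family and basal keratinocyte genes.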

How the data were processed

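RNA-seq was analysed for the 3 treated, 7 WT and 7 untreated day 14 wounds. According to the methods, TruSeq stranded libraries were read as 50 bp single ends, aligned with HISAT2 to mm9 allowing 2 mismatches, and counted with SeqMonk over RefSeq exons. The authors deposited raw counts for 29082 RefSeq transcripts. Of these, 30 rows name no gene (0.0226% to 0.0694% of counts) and were dropped, and the row with the largest total was kept for each of 22830 symbols, of which 26 are numbers in place of names. A second table, of the cilengitide experiment, was not used.

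Genes passing filterByExpr (minimum count 10) entered edgeR 4.0.16 (R 4.3.3), with TMM normalization and a robust quasi-likelihood fit to the wounds compared. CPM use TMM factors over the 17 day 14 wounds. Exact permutation tests used scipy 1.17.1. The script was tested on simulated data. Alternatives were DESeq2 1.42.0, other scalings and filters, summed rows, untreated wounds in the fit, covariates, a replicate block, a 3-fold and 1 RPKM limit, and leaving out each wound. The unblocked fit to WT a to c and the collagen ratios were added after seeing the data.

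The members and 52 gene lists (975 entries, 968 found) were chosen with earlier results of these data known. Named genes were 13 genes of the study's question, the 5 in each direction with the smallest adjusted p among those called in both comparisons without overlap, and up to 2 called members of each list. All other genes named were chosen after their values were seen. Same-group libraries differed by more than sampling noise, so each counts as 1 sample. As a check of pairing, deviations of treated a to c correlated with those of WT a to c at 0.44, 0.14 and 0.16 when centred on WT a to c, and at 0.35, 0.02 and 0.26 when centred on all 7 WT. The letters come from the titles, which name no shared animal, litter or day. Since the first check is over 0.1 for each pair, values with the replicate block are given where they change a call. Library set was read from GC content, since the labels give no batch. Depth limits low genes, and counting intervals would cover counting error only.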

Additional observations from a re-analysis of the deposited data

Results flagged for a closer look

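Among the 81 named genes, 5 had a WT wound far from the other 6 by Dixon's test at the 95% level on log2(CPM + 1), and chance alone flags about 5% of groups. Krt16 was at 11599.8 CPM in WT g, with the others at 2549 to 4421 CPM. Skint6 was at 38.1 CPM in WT g, with the others at 90.2 to 156 CPM, and Col5a3 at 96.8 CPM in WT g, with the others at 210 to 348 CPM. Il17f was at 1.28 CPM in WT d, with the others at 0 to 0.28 CPM. Cd4 was at 0.491 CPM in WT c, with the others at 3.68 to 5.57 CPM. Groups of 3 were not tested.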

How the results depend on the processing

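Against 7 WT, higher and lower calls numbered 863 and 1176 with DESeq2, 914 and 337 with untreated Col5a1CKO wounds in the fit, 1535 and 1021 with library set as a covariate, 1108 and 776 with Xist level added, 384 and 206 at 3-fold and 1 RPKM, and 1403 and 1220 at an unadjusted p. Higher genes were 64.7% of calls, 57.5% with RLE size factors, 73.8% with library size only (which moved the median of all genes from 0.03 to 0.16) and 42.3% with DESeq2. Leaving out 1 wound gave 207 to 650 higher and 73 to 371 lower. Against WT e to g the counts were 1839 and 802 at 3-fold, 892 lower with untreated wounds in the fit, and 2456 to 2978 higher and 1409 to 1700 lower without 1 wound. Genes called in both without overlap numbered 346 and 155 at 3-fold, 1033 higher at an unadjusted p, 121 lower with untreated wounds in the fit, and 206 to 462 higher and 73 to 261 lower without 1 wound. The causes of these shifts were not tested.

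With the replicate letter as a block (treated a to c paired with WT a to c), 1458 genes were higher and 1718 lower, and without the block on the same wounds 1890 and 1937. Of 79 named genes tested both ways, 4 changed call between them, and 10 had another call with the block than against 7 WT, none in the opposite direction. Log2 fold changes that turned sign were Col3a1 at 1.94 against WT e to g, 1.96 with library set and 1.56 with Xist added, Krt16 at 0.096 without WT g (-0.51 to 0.096 over all wounds left out), 0.091 with the block and 0.13 without it, Krt17 at -0.12 against WT e to g and -0.11 with library set, and Itgav at 0.59, 0.60 and 0.52. Without 1 treated wound, leukocyte adhesion genes had 5 to 6 higher members, TNF and NF-kB genes 6 to 7, endothelial genes 4 to 7, neutrophil genes 4 to 5, lipid barrier genes 5 to 6 lower, cornified envelope genes 3 to 5 lower and hemoglobin genes 0 to 2 higher.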
